A study of Bos taurus with 179 samples.

Results

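The transcripts described here were those of BMP15, a growth factor secreted by the oocyte, and of receptors of the bone morphogenetic protein (BMP) and activin family, with BMP6 as a second ligand. The members were BMP15 and those genes among BMPR1A, BMPR1B, BMPR2, ACVR1, ACVR1B, ACVR2A, ACVR2B and BMP6 paired with a gene ID in the part of the study's supplementary gene lists used here, which were read from shortened copies. This gave 8 of the 9 genes named, out of 21218 gene IDs in the count table, and ACVR1B, whose ID may stand in the part of the lists not used, was not analysed here. BMP15, BMPR1A and the others were read at their gene IDs, each of which stood on a single line of the table.

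Ligands of this family bind a complex of type II and type I receptors, both of which are kinases of the cell membrane. The type II receptor phosphorylates the type I receptor, which then activates SMAD proteins that enter the nucleus and regulate transcription. BMP15 and the related GDF9 are made by the growing oocyte and act on the surrounding granulosa cells, whose receptor BMPR1B is known from ewes in which a mutation of it raises the ovulation rate. Receptor transcripts inside the oocyte concern what the oocyte itself could receive, and the counts hold no measure of receptor protein.

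The study sequenced the polyadenylated RNA of single oocytes of Bos taurus, freed from ovaries collected at an abattoir, stripped of their cumulus cells by pipetting and measured under a microscope. No treatment was compared and no genetic change is named. Diameter was the factor set by design, in 8 groups that ran from < 60 μm, in steps of 10 μm from 60–69 to 110–119 μm, up to > 120 μm. By the paper's methods, fully grown oocytes were first aspirated from visible follicles. Growing oocytes were then freed by slicing the cortex in a medium with cilostamide, and filtered. Collection route may therefore go with size, is not given per oocyte in the sources used here, and its part was not tested. Of 179 deposited oocytes, those that the study lists as passing its quality control were used, and from the smallest to the largest the groups held 21, 25, 23, 24, 21, 18, 19 and 14 of them. Libraries came in 2 replicates, the first read at 150 bp (97 oocytes) and the second at 75 bp (68 oocytes), so library batch and read length cannot be told apart. No source used here names the animal an oocyte came from, and age and breed are not given.

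Total counts per oocyte ranged from 277126 to 8038061, with a median of 1763520. The 6 oocyte markers BTG4, BCAR4, AURKC, CPEB1, CCNB3 and BOLL were counted in all of these oocytes. The summed level of 5 granulosa cell genes lay between 0 and 21.4 CPM (counts in a library scaled to 1000000), with a median of 6.95 CPM in oocytes < 60 μm and 0.786 CPM in those > 120 μm. Among defining genes of other ovarian cells, COL1A1, COL3A1, CD34, CDH5, CD79A, CD4, CD14 and C1QB were counted in at most 4 oocytes each. The other genes of these lists were counted more often, with the 2 IDs of CYP17A1 in 3 and 8 oocytes, DCN in 13, CD163 in 23, CLDN5 in 41, CD68 in 64, and COL1A2 and ACTA2 in 143 each. A value in CPM is a share of the library after TMM scaling, not a number of molecules per oocyte.

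The 3 size ranges < 70, 70–109 and ≥ 110 μm were compared in ascending order, oocytes > 120 μm were compared with those < 60 μm, and the size groups were compared in 7 successive steps. Within each replicate the oocytes of 1 size group were added up, which gave 16 sums of counts, and these were tested with edgeR's quasi-likelihood test with the replicate as a block, with adjustment over 14087 genes. A gene is called upregulated or downregulated below where its adjusted p was under 0.05. The study singled out BMP15 on these same oocytes, so its tests are not independent evidence of its pattern.

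BMP15 was counted in every oocyte, at a median of 1065 CPM. Its level was lowest in the smallest oocytes and 2.71-fold higher, by group medians, in those of 100–109 μm. In oocytes < 60 μm it ranged from 322 CPM over a median of 668 to 1545 CPM. At 60–69 μm the lowest, median and highest oocytes stood at 445.1, 821 and 2036 CPM. Both groups overlapped widely, and the next group began higher.

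At 70–79 μm BMP15 ranged from 554 to 2111 CPM with a median of 1220 CPM. The medians at 80–89 μm and 90–99 μm were 965 and 1136 CPM, within ranges of 543 to 2910 and 560 to 2255 CPM. These 3 neighbouring groups did not differ beyond their spread. The median then reached 1810 CPM at 100–109 μm, with oocytes from 591 to 2407 CPM, the highest of the 8 medians. At 110–119 μm it was 1009 CPM, with a wide spread from 123 to 2509 CPM. The standard deviation of CPM was 762 there and 795 at > 120 μm, and that of log2(CPM + 1) was 1.26 and 1.13. Oocytes > 120 μm had a median of 1711 CPM and a range of 232.97 to 2591 CPM. By mean CPM, BMP15 ranked 181st among all gene IDs in oocytes < 60 μm, 26th at 100–109 μm and 42nd in those > 120 μm, a rank that also carries the length of the transcripts.

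The wide spread at 110–119 μm came with a split between the replicates. In replicate 1, the 12 oocytes of this size held 123, 220.7, 296.8, 325, 378, 558, 720, 946, 1056, 1229, 1460 and 1868 CPM of BMP15. In replicate 2, the 7 oocytes ranged from 955 CPM over a median of 2100 CPM to 2509 CPM. Of the 12 oocytes of replicate 1, 6 lay below the lowest oocyte of 100–109 μm of the same replicate, and none lay above the highest. Of the 7 oocytes of replicate 2, 4 lay above the highest oocyte of 100–109 μm and none lay below the lowest.

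**Figure D1:**
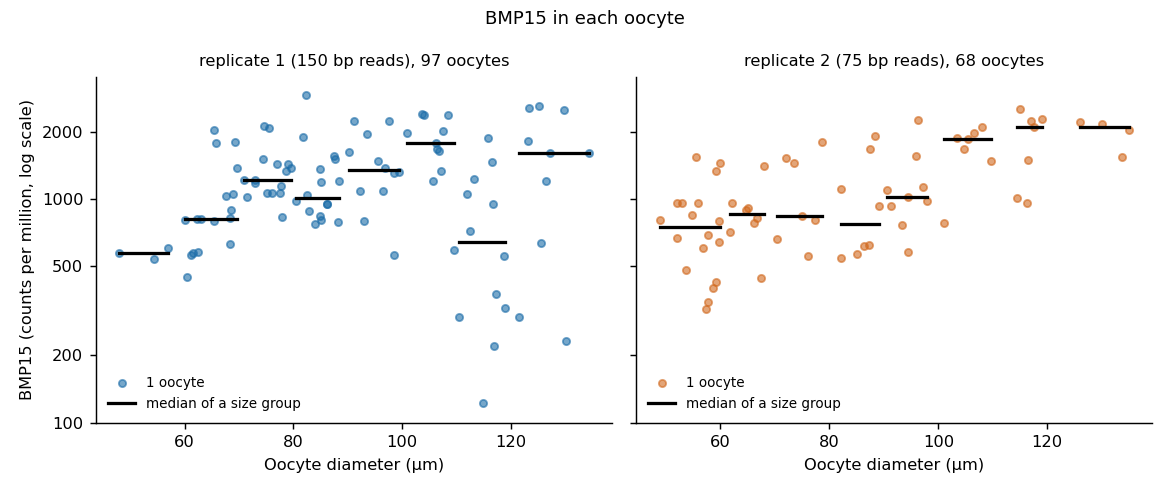
BMP15 in CPM (log axis) against the diameter of each oocyte in μm, for replicate 1 (left, 97 oocytes) and replicate 2 (right, 68 oocytes); black bars are the medians of the 8 size groups. In replicate 1 the median falls from 1777 CPM at 100–109 μm to 639 CPM at 110–119 μm, whereas in replicate 2 it goes from 1843 to 2100 CPM.

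Up to 109 μm BMP15 ended higher than it began in both replicates, by different courses. The BMP15 medians of replicate 1 from < 60 to 100–109 μm were 574, 817, 1220, 1012, 1344 and 1777 CPM, and those of replicate 2 were 747, 860, 841, 773, 1018 and 1843 CPM. Above 120 μm the median was 1606 CPM in replicate 1, and the 4 oocytes of replicate 2 held 1532, 2033, 2163 and 2198 CPM.

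From < 60 to > 120 μm, BMP15 was upregulated by a log2 fold change of 1.29 (SE 0.40, adjusted p = 0.0300, edgeR quasi-likelihood test), a 2.44-fold difference that was 1.16 within replicate 1 and 1.39 within replicate 2. The call rested on few sums: without the 3 oocytes < 60 μm of replicate 1 the value was 1.17 (adjusted p = 0.163), and without the 4 oocytes > 120 μm of replicate 2 it was 1.09 (adjusted p = 0.155). Over the same comparison 9.36% of all genes tested were upregulated. The median log2 fold change over all genes was -0.12.

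Between < 70 and 70–109 μm, the log2 difference in BMP15 was 0.66 (SE 0.25, 95% interval 0.14 to 1.18, adjusted p = 0.0986), with 0.86 within replicate 1 and 0.41 within replicate 2. Here a single deep library carried weight, because 1 oocyte of 109.57 μm supplied 52.9% of the counts of the 100–109 μm sum of replicate 1, and at 591 CPM it had the lowest BMP15 of its 11 oocytes. Without that oocyte the difference was 0.76 and passed the threshold (adjusted p = 0.0467), as it did without the 110–119 μm sum of replicate 1 (0.68, adjusted p = 0.0268) or of replicate 2 (0.70, adjusted p = 0.0324). With each oocyte thinned to 250000 counts, so that each weighs the same in its sum, it was 0.78 (adjusted p = 0.00802). DESeq2 on the same sums gave 0.66 (adjusted p = 0.0394).

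With single oocytes in place of sums, the same difference was 0.91 in replicate 1 alone (SE 0.26, adjusted p = 0.00501, edgeR) and 0.55 in replicate 2 alone (SE 0.17, adjusted p = 0.0225, edgeR). Such p-values count oocytes of an unknown number of animals as independent and may be too small. In these fits 32.1% and 9.47% of the genes tested were called.

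Beyond 110 μm the replicates parted. Over all 16 sums, BMP15 at ≥ 110 μm against 70–109 μm differed by 0.21 (SE 0.24, 95% interval -0.30 to 0.72, adjusted p = 0.611, edgeR), with -0.50 within replicate 1 and 0.83 within replicate 2. Without the 110–119 μm sum of replicate 2 it turned to -0.15 (adjusted p = 0.749). The difference between the replicates was tested as an interaction in a fit of single oocytes, where it came to 1.05 (SE 0.29, adjusted p = 0.00893, edgeR), against a background of 8.16% of genes called. Single oocytes of replicate 1 alone gave -0.42 (SE 0.18, adjusted p = 0.0438, edgeR) and those of replicate 2 alone 0.68 (SE 0.20, adjusted p = 0.0233, edgeR), with 49.7% and 8.17% of genes called. These fits of single oocytes, the interaction among them, also count oocytes of an unknown number of animals as independent, and their p-values may be too small.

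By single steps no difference between the replicates was called for BMP15. The step from 100–109 to 110–119 μm was -0.95 within replicate 1 and 0.05 within replicate 2 on the sums, and -0.32 over both (SE 0.39, adjusted p = 0.636). The interaction for this step was 1.30 (SE 0.45, adjusted p = 0.0828) and was not called, where 3.67% of genes were. The step before it, from 80–99 to 100–109 μm, was -0.12 within replicate 1 and 0.82 within replicate 2 on the sums, and its interaction was 0.23 (SE 0.38, adjusted p = 1.00, edgeR). The value of replicate 1 rests on the sum in which the 109.57 μm oocyte supplied 52.9% of the counts, and single oocytes of replicate 1 gave the opposite sign, 0.42 (adjusted p = 0.390). Library size moved with the later step, as the median total was 627581 counts at 100–109 μm and 2775303 counts at 110–119 μm in replicate 1, against 1352974 and 1332591 counts in replicate 2. Over all oocytes BMP15 had a Pearson's r of -0.507 with the log10 total, with replicate means removed, and -0.381 with the mean of each size group and replicate removed. The part of the library total in the BMP15 levels was not tested. With the granulosa gene sum BMP15 had an r of -0.377, and of -0.331 within size groups and replicates, and the part of that sum was not tested either. The granulosa gene sum had medians of 1.44 and 1.31 CPM in these groups of replicate 1, and 1.56 and 1.14 CPM in replicate 2.

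BMP15 also differed between replicates in how closely it followed the diameter. Pearson's r of log2(CPM + 1) with diameter was 0.269 over all oocytes (Spearman's rho 0.374), 0.024 within replicate 1 and 0.631 within replicate 2. Leaving out the 2 oocytes farthest from the median diameter gave 0.252. Over all 14087 genes the median r was -0.038, the quartiles were -0.211 and 0.160, and 15.5% of genes had a higher r than BMP15. These coefficients are descriptions, because the oocytes may share animals and share their library batch.

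BMP6, a ligand that binds type I receptors such as ACVR1, was counted at a low level in most oocytes, with a median of 5.23 CPM and 15 oocytes at 0 counts. Its group medians from < 60 to > 120 μm were 2.96, 5.23, 4.54, 5.06, 5.35, 7.82, 6.34 and 8.19 CPM. The smallest and the largest oocytes overlapped, with 0 to 11.8 CPM in the 21 oocytes < 60 μm and 0.724 to 23.8 CPM in the 14 oocytes > 120 μm. The median count behind these values was 10 per oocyte, so counting error is large in a single oocyte.

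From < 60 to > 120 μm BMP6 was upregulated by a log2 fold change of 1.53 (SE 0.51, adjusted p = 0.0422, edgeR), with 1.32 within replicate 1 and 1.72 within replicate 2. Leaving out any of the 4 sums compared ended the call, with values of 1.75 and 1.46 without the < 60 μm sum of replicate 1 or 2 and of 1.61 and 1.59 without the > 120 μm sum of replicate 1 or 2 (adjusted p between 0.108 and 0.143). Only part of this course was steady, since BMP6 in replicate 1 had its highest median at 100–109 μm, 12.05 CPM, and 6.37 CPM at 110–119 μm. The step from 80–99 to 100–109 μm was 1.25 (SE 0.42, adjusted p = 0.160), and 1.19 and 1.32 within the replicates. In the 2 adjoining broad comparisons BMP6 gave 0.21 and 0.49, neither of them called (adjusted p = 0.707 and 0.302).

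**Figure D2:**
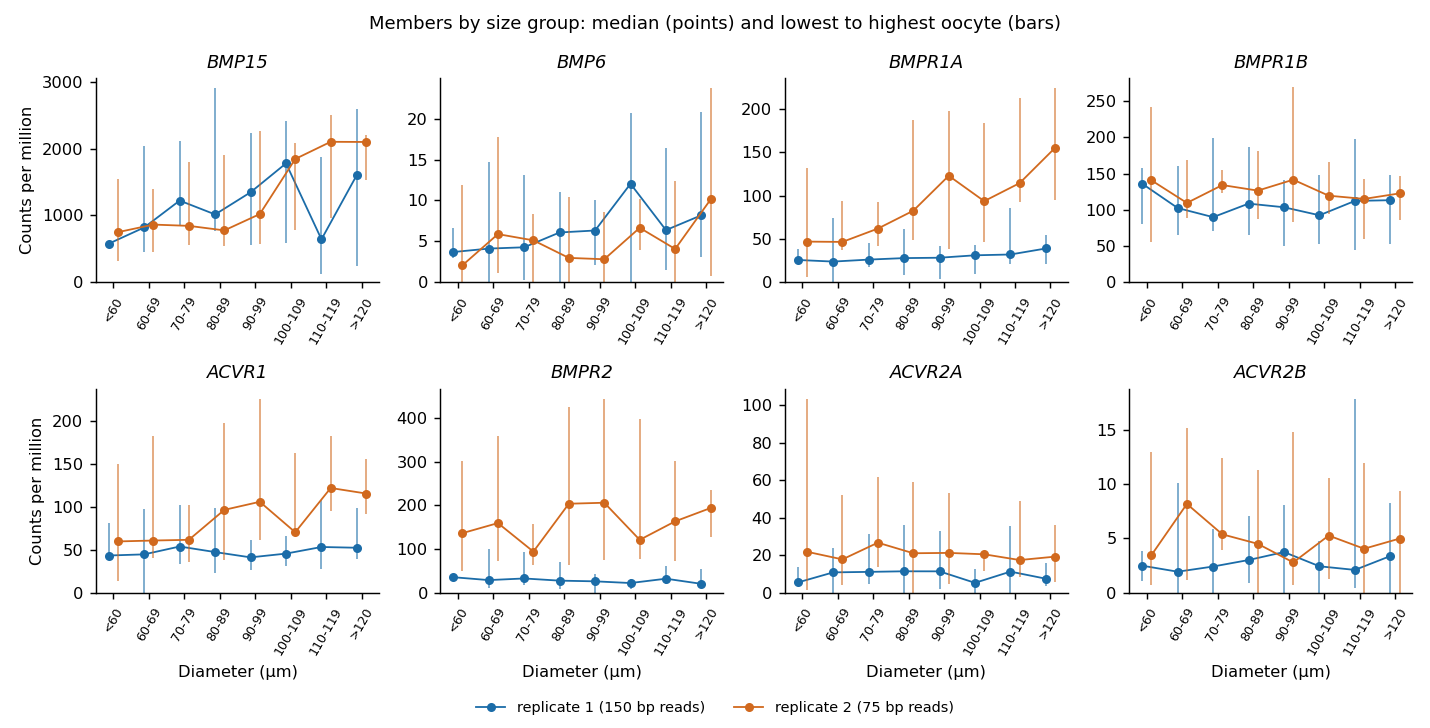
CPM of the 8 members (linear axes from 0) in the 8 size groups, as the median (points) and the lowest to the highest oocyte (bars) in each replicate. BMPR2 lies far lower in replicate 1 than in replicate 2 at all sizes, BMPR1A and ACVR1 rise with size mainly in replicate 2, and BMPR1B is level in both.

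Of the 3 type I receptors, BMPR1A (ALK3) was called in 1 of the 10 comparisons, upregulated at ≥ 110 over 70–109 μm, whereas BMPR1B (ALK6) and ACVR1 (ALK2) passed the test on sums in none of the 10 comparisons. BMPR1A had a median of 27.6 CPM in replicate 1 and 74.7 CPM in replicate 2, so its levels are given within replicates. In replicate 1 its group medians from < 60 to > 120 μm were 25.5, 23.7, 26.0, 27.7, 28.1, 30.9, 31.9 and 38.8 CPM. In replicate 2 they were 46.8, 46.4, 61.8, 82.6, 123, 93.6, 115 and 155 CPM. The order in replicate 2 was steeper, and its 11 oocytes ≥ 110 μm, from 92.7 to 224.4 CPM, all lay above the medians of its 4 smallest groups.

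BMPR1A was upregulated at ≥ 110 μm over 70–109 μm, by a log2 fold change of 0.66 (SE 0.21, adjusted p = 0.0442, edgeR), with 0.51 within replicate 1 and 0.82 within replicate 2. Within replicate 2 the earlier difference, 70–109 over < 70 μm, was about as large at 0.79, against -0.08 within replicate 1, and over both it was 0.33 (adjusted p = 0.367, edgeR). BMPR1A was the only one of the 8 members called there, where 14.8% of all genes were called and 7.08% were upregulated. The call was close to the threshold: 7 of the 16 left-out sums ended it, namely those of replicate 1 at 80–89, 90–99, 100–109 and 110–119 μm and of replicate 2 at 70–79, 110–119 and > 120 μm, with values between 0.54 and 0.74. All 179 oocytes gave 0.60 (adjusted p = 0.0596).

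Between the ends of the size range, > 120 over < 60 μm, BMPR1A differed by 1.02 (SE 0.36, 95% interval 0.25 to 1.78, adjusted p = 0.0580), with 0.28 within replicate 1 and 1.82 within replicate 2. It passed the threshold when any of 12 of the 16 sums was left out, at 1.01 to 1.64, whereas it was 0.62 (adjusted p = 0.307) without the < 60 μm sum of replicate 2 and 0.79 (adjusted p = 0.259) without the > 120 μm sum of replicate 2. The largest value and the smallest adjusted p (0.0174) came without the 3 oocytes < 60 μm of replicate 1, which held 24.3, 25.5 and 38.2 CPM. The other 11 of the 12 were the 60–69, 70–79, 90–99, 100–109 and 110–119 μm sums of both replicates and the 80–89 μm sum of replicate 2. DESeq2 (1.04, adjusted p = 0.0297) and 250000 counts per oocyte (1.09, adjusted p = 0.0223) also placed it below the threshold. Its r with diameter was 0.384 (rho 0.419), the highest of the members, and 0.183 and 0.617 within the replicates. With the granulosa gene sum BMPR1A had an r of -0.392, and of -0.267 with the mean of each size group and replicate removed. The part of that sum in the BMPR1A levels was not tested.

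BMPR1B was counted in all oocytes, from 44.6 to 270 CPM. Its group medians lay between 89.7 CPM at 70–79 μm and 136 CPM at < 60 μm in replicate 1. In replicate 2 they lay between 109 CPM at 60–69 μm and 141 CPM at 90–99 μm. The ranges of all 8 groups overlapped. The log2 differences in the 3 broad comparisons were 0.02, -0.10 and -0.07, and the 95% interval for > 120 over < 60 μm, -0.60 to 0.46, was the narrowest of the 8 members. The signs of the 3 differences were not stable, and each turned in at least 1 fit that changed the processing or left out a sum.

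ACVR1 had a median of 48.0 CPM in replicate 1 and 83.7 CPM in replicate 2. Within replicate 1 its group medians stayed between 41.2 and 53.8 CPM, and within replicate 2 they went from 59.7 CPM at < 60 μm to 122 CPM at 110–119 μm and 115 CPM at > 120 μm. The lowest of the 11 oocytes of replicate 2 at ≥ 110 μm stood at 91.3 CPM. Over the sums, > 120 against < 60 μm gave 0.29 (SE 0.36, 95% interval -0.46 to 1.04, adjusted p = 0.611), with -0.36 within replicate 1 and 1.04 within replicate 2. With single oocytes as units the same difference was 0.62 (adjusted p = 0.0213, edgeR, with 40.5% of genes called), so the call depended on the unit.

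Of the type II receptors BMPR2, ACVR2A and ACVR2B, which bind BMPs and, for the latter pair, activins, none was called in any of the 10 comparisons by edgeR on the sums. BMPR2 differed most between replicates, with a median of 28.97 CPM in replicate 1 and 155 CPM in replicate 2, a ratio of 0.187. The pooled group medians of BMPR2, 115 CPM at < 60 μm and 27.8 CPM at > 120 μm, mix the replicates unequally, as 18 of the 21 smallest but 4 of the 14 largest oocytes came from replicate 2. Within replicate 1 the medians went from 35.6 to 20.4 CPM and within replicate 2 from 136 to 194 CPM.

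With the replicate as a block, BMPR2 at > 120 over < 60 μm differed by -0.18 (SE 0.39, 95% interval -0.99 to 0.64, adjusted p = 0.792), with -0.88 within replicate 1 and 0.50 within replicate 2. One step differed between the replicates by the interaction test over single oocytes: from 70–79 to 80–99 μm BMPR2 went by -0.57 in the sums of replicate 1 and by 1.05 in those of replicate 2, with an interaction of 1.70 (SE 0.43, adjusted p = 0.0355, edgeR), where 0.632% of genes were called. That test counts oocytes of an unknown number of animals as independent, so its p may be too small. The r of BMPR2 with diameter was -0.192 within replicate 1 and 0.150 within replicate 2.

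ACVR2A was counted in 160 oocytes and absent from the counts of 5, at a median of 10.4 CPM in replicate 1 and 20.9 CPM in replicate 2. Its lowest medians were at 100–109 μm in replicate 1, 5.29 CPM, and at 110–119 μm in replicate 2, 17.5 CPM. The step from 80–99 to 100–109 μm was -0.91 (SE 0.35, adjusted p = 0.216) and the next step, to 110–119 μm, 0.84 (SE 0.39, adjusted p = 0.174). Neither passed the threshold, and > 120 over < 60 μm gave -0.26 (95% interval -1.06 to 0.54). ACVR2B was the most thinly counted member, with a median count of 6 per oocyte and 15 oocytes at 0. Its group medians lay between 1.94 and 3.75 CPM in replicate 1 and between 2.79 and 8.18 CPM in replicate 2. Its 95% interval for > 120 over < 60 μm, -0.80 to 1.37, was wide.

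In all, 2 of the 8 members were called between < 60 and > 120 μm, both upregulated, where 19.2% of all genes were called. At < 70 against 70–109 μm 0 of 8 were called by edgeR and 1 of 8 by DESeq2, with 9.5% of all genes called by edgeR and 2064 of 14087 by DESeq2. At an unadjusted p under 0.05 there were 1 of 8 members and 25.8% of all genes. In the 7 comparisons of successive groups edgeR on the sums called 0 members, DESeq2 also called 0, and 3 of the 56 edgeR tests had an unadjusted p under 0.05, namely BMP6 and ACVR2A at 100–109 over 80–99 μm and ACVR2A at 110–119 over 100–109 μm. Over all genes and the same 7 steps, 10.4% of tests had an unadjusted p under 0.05. The shares of all genes called at an adjusted p under 0.05 were 0.0142%, 0.135%, 0%, 0%, 0.497%, 3.88% and 0.0071% from the smallest to the largest step. DESeq2 called 7, 83, 17, 0, 506, 1967 and 2 of all genes in the same steps. With single oocytes in place of sums, 2 of the 56 tests were called, both for BMP15, at 0.57 for 70–79 over < 70 μm (adjusted p = 0.0302, edgeR, with 7.8% of genes called) and at -0.64 for 110–119 over 100–109 μm (adjusted p = 0.0200, with 37% of genes called). Single oocytes of replicate 1 alone called 3, namely BMP15 at -1.26 (adjusted p = 0.000268) and ACVR2A at 1.07 (adjusted p = 0.0437) for 110–119 over 100–109 μm, where 43% of genes were called, and BMP15 at 1.04 for > 120 over 110–119 μm (adjusted p = 0.0149, with 13.2% of genes called). Those of replicate 2 alone called 0 by edgeR, with 5 of the 56 tests at an unadjusted p under 0.05. The share of all genes in these steps of replicate 2 is not given here, so these counts have no background. With 8 members, the counts that have a share of all genes beside them were not read as setting the members apart from it.

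**Figure D3:**
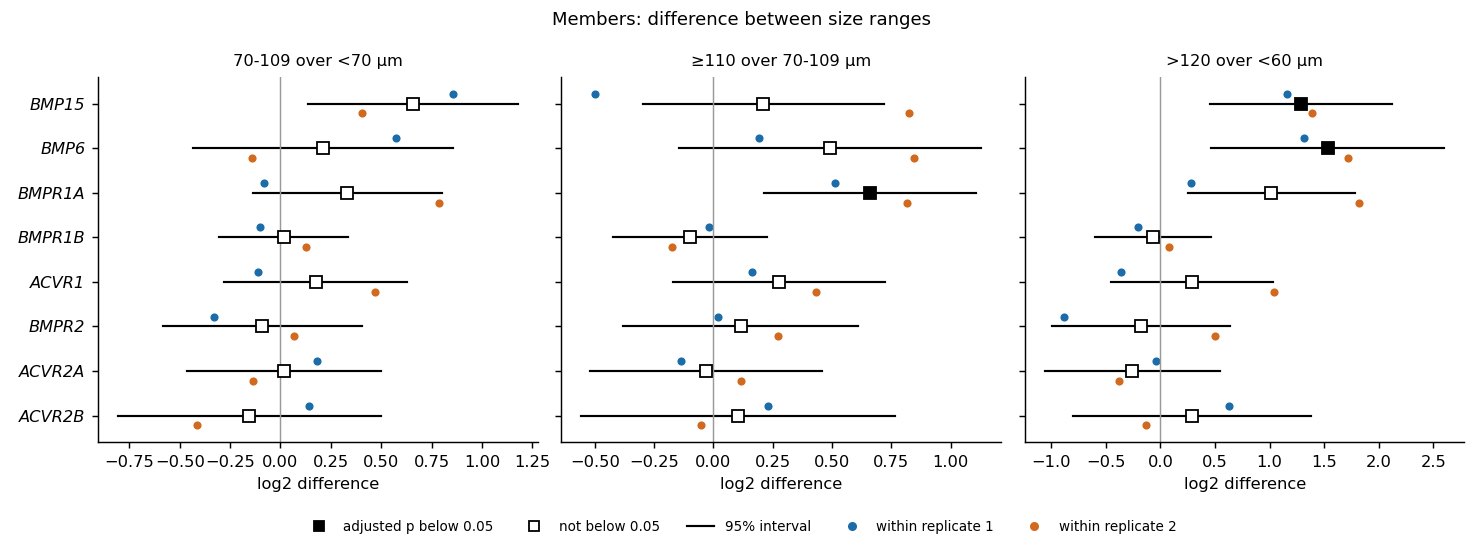
Log2 difference of the 8 members in the 3 broad comparisons of size ranges (squares, filled where the adjusted p is below 0.05, with 95% intervals) and the difference within each replicate (small points). BMP15 and BMP6 are filled for > 120 over < 60 μm and BMPR1A for ≥ 110 over 70–109 μm, and for BMP15 the replicates stand on opposite sides of 0 in the middle panel.

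The members were compared with each other over all oocytes, as deviations from the mean of their own replicate. The 28 pairs had a Pearson's r between -0.287 and 0.654, with a median of 0.098, and 11 of them were positive within both replicates. The highest pair was BMPR1A with ACVR1, both type I receptors, at 0.654 over both, 0.707 within replicate 1 and 0.586 within replicate 2. BMPR1A with BMPR2 followed at 0.480 (0.545 and 0.391). BMP6 with BMPR2 was the lowest, at -0.287 (-0.307 and -0.279). BMP15 reached its highest value among the members with BMPR1B, 0.336, of which 0.457 stood in replicate 1 and 0.124 in replicate 2. All points of these coefficients share library batches and an unknown number of animals.

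The gene IDs with a symbol whose levels were most like those of BMP15 over all oocytes were CRLF3 (r of 0.692), ARHGAP25 (0.679), CAPN14 (0.636), CMTR1 (0.628) and ASTN2 (0.624), with r on log2(CPM + 1) and replicate means removed. Each was above 0.5 within both replicates. Over the 16 sums the same measure was 0.765, 0.869, 0.875, 0.703 and 0.832. These values come from the same oocytes by which the 5 genes were picked, so they are no independent support. BMP15 had an r of -0.507 with the log10 library total, and the part of that total in these coefficients was not tested. They were taken from 2935 genes with a symbol among 14086 compared, and the highest r of all was 0.816, for an ID without a symbol here. The 5 genes differed in their relation to size, as the r with diameter, 0.269 for BMP15, was 0.061 for CRLF3, -0.038 for CMTR1, 0.249 for CAPN14, 0.550 for ARHGAP25 and 0.535 for ASTN2.

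Other genes of the pathway were read from a fixed list of 15, which holds those whose symbols stood in the shortened copies and is not the whole pathway, namely the ligands BMP1, BMP3, BMP4, BMP5, BMP7 and BMP8A as named in the gene lists, the receptors ACVR1C, ACVRL1 and AMHR2, the antagonists or pseudoreceptor BAMBI, CHRDL1, CHRDL2, CER1 and CRIM1, and the SMAD protein SMAD9. BMP1 is a protease despite its name. Of these, 10 passed the filter on low counts and 5 did not: BMP5, BMP8A, ACVR1C, AMHR2 and CER1 had 0 counts in 155 to 164 oocytes. From < 60 to > 120 μm, 1 of the 10 was upregulated and 4 were downregulated, against 9.36% and 9.8% of all genes. Their median log2 difference was -1.20, with -0.12 over all genes.

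CHRDL1, a secreted antagonist that binds BMPs, fell with size. It was counted lower in replicate 1, with a median of 4.64 CPM against 15.5 CPM, so its levels are given within replicates. Its medians at < 60, 60–69 and > 120 μm were 14.1, 6.01 and 1.90 CPM in replicate 1 and 23.1, 17.1 and 6.44 CPM in replicate 2. In replicate 1, the 3 smallest oocytes ranged from 9.64 to 17.0 CPM and the 10 largest from 0 to 13.8 CPM. In replicate 2, the 18 smallest ranged from 4.97 to 54.7 CPM and the 4 largest from 4.15 to 19.3 CPM. The log2 fold change was -1.96 (SE 0.42, adjusted p = 0.00351, edgeR), and -2.40 and -1.43 within the replicates. Without the > 120 μm sum of replicate 1 it was -1.68 (adjusted p = 0.0722), and with 250000 counts per oocyte -1.27 (adjusted p = 0.0589). CHRDL1 was also the 1 pathway gene called between < 70 and 70–109 μm, at -0.85 (adjusted p = 0.0277), where 4.37% of genes were downregulated. That call was lost in 9 of the 16 fits that left out a sum, those without the < 60 μm sum of replicate 1, either sum of 60–69, 70–79 or 80–89 μm, the 90–99 μm sum of replicate 1 or the 100–109 μm sum of replicate 2, at -0.67 to -0.89. The granulosa gene sum fell over the same sizes, and its part in the fall of CHRDL1 was not tested.

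BMP4, a BMP ligand, rose. In replicate 1 its median went from 7.31 CPM in the 3 oocytes < 60 μm to 60.9 CPM in the 10 oocytes > 120 μm, and the lowest of the latter, 34.4 CPM, stood above the highest of the former, 10.2 CPM. In replicate 2 it was counted at 3.63 CPM and 6.17 CPM, with overlapping ranges. The log2 fold change was 1.98 (SE 0.46, adjusted p = 0.00591, edgeR), with 3.32 within replicate 1 and 0.75 within replicate 2. Without the < 60 μm sum of replicate 1 it was 1.28 (adjusted p = 0.104) and without the > 120 μm sum of replicate 1 it was 1.33 (adjusted p = 0.173), and without the < 60 μm sum of replicate 2 it was 3.18 (adjusted p = 0.000190). BMP4 was counted 5.49-fold higher in replicate 1 than in replicate 2 by medians, whereas the medians of the 6 member receptors were lower in replicate 1.

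**Figure D4:**
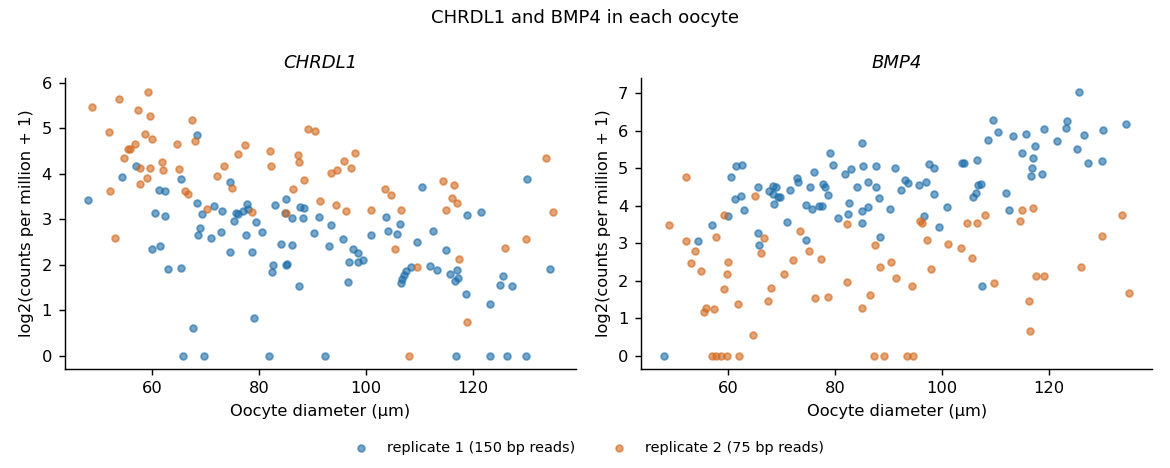
CHRDL1 (left) and BMP4 (right) as log2(CPM + 1) against diameter in μm, with 1 point per oocyte, coloured by replicate. CHRDL1 falls with size in both replicates, and BMP4 rises mainly in replicate 1, where oocytes > 120 μm lie between 34.4 and 130.9 CPM.

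The other calls in the pathway list were weaker. ACVRL1 (ALK1), a type I receptor best known from endothelium, was at -2.36 for > 120 over < 60 μm (adjusted p = 0.0332), with 8 of the 14 largest oocytes at 0 counts, all 4 of replicate 2 among them. BMP3 was at -1.45 (adjusted p = 0.0384) and CRIM1, which binds BMPs at the cell surface, at -0.95 (adjusted p = 0.0498). BMP7 was called at ≥ 110 over 70–109 μm alone, at -1.65 (adjusted p = 0.0378), where 7.68% of genes were downregulated. Leaving out 1 sum ended the call of ACVRL1 in 5 of 16 fits, those without either sum of < 60 or 60–69 μm or the > 120 μm sum of replicate 2 (-1.55 to -2.70). Without the > 120 μm sum of replicate 1 the largest oocytes left had 0 counts of ACVRL1, and the fitted -10.0 (adjusted p = 0.00892) is no measure of size. It ended that of BMP3 in 12 fits, all but those without the < 60 μm sum of replicate 2, either 80–89 μm sum or the > 120 μm sum of replicate 1 (-0.76 to -1.43). BMP3 moved most with the largest oocytes, to -0.76 without the > 120 μm sum of replicate 2 and to -2.58 without that of replicate 1. CRIM1 kept its call in 2 fits, those without the < 60 or the 70–79 μm sum of replicate 2, and lost it at -0.49 (without the < 60 μm sum of replicate 1) to -0.94. BMP7 kept its call in 6 fits, those without either < 60 μm sum, the 70–79, 80–89 or 90–99 μm sum of replicate 1 or the 100–109 μm sum of replicate 2, and lost it at -0.995 (without the 100–109 μm sum of replicate 1) to -2.03. In fits that changed the processing or left out 1 deep oocyte, CRIM1 lost its call in 8 and kept it in 2. BMP3 lost its call in 5 and kept it in 5, BMP7 in 3 and 7, and ACVRL1 in 2 and 8.

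SMAD9, BAMBI, BMP1 and CHRDL2 were called in none of the 10 comparisons. SMAD9, one of the SMAD proteins that BMP type I receptors activate, was at -1.72 for > 120 over < 60 μm (95% interval -3.31 to -0.13, adjusted p = 0.118), and 50 oocytes had 0 counts of it. BAMBI, a pseudoreceptor that lacks the kinase domain, was at 0.21 (95% interval -0.65 to 1.08). BMP1 and CHRDL2 were at 0 counts in 123 and 133 oocytes.

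**Figure D5:**
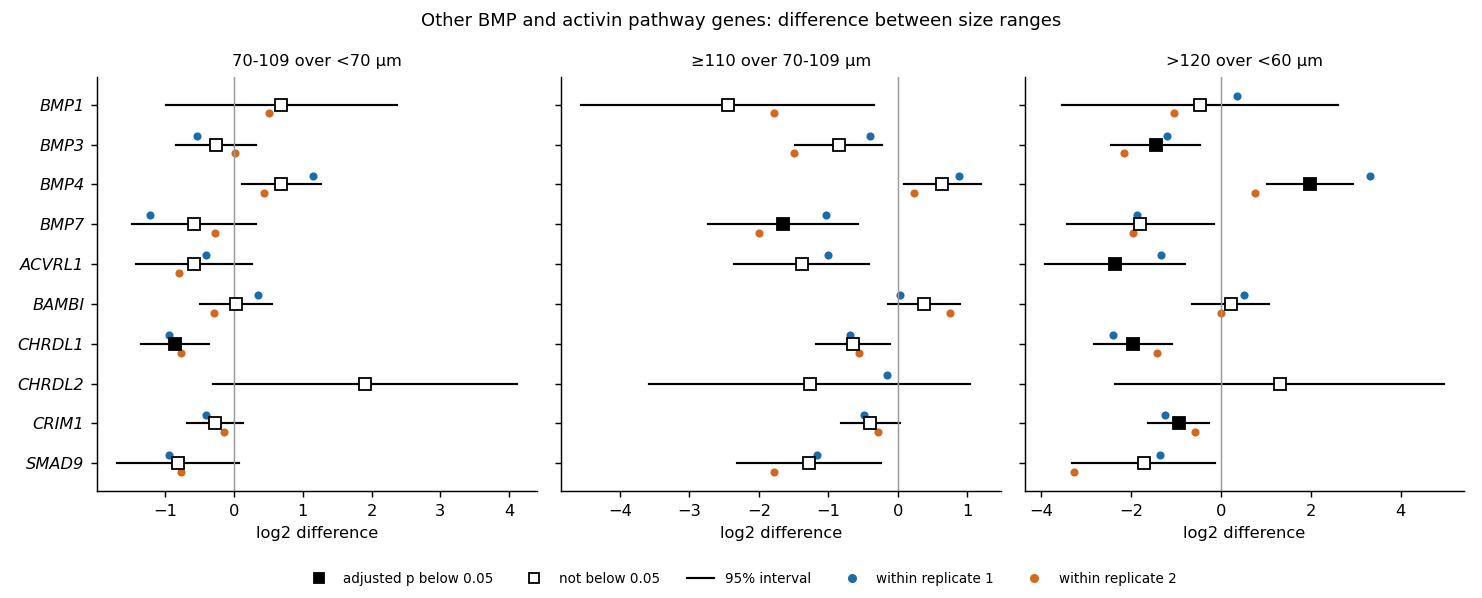
Log2 difference of the 10 pathway genes that passed the filter, drawn as for the members; small points are left out where a sum that enters them holds 0 counts. In the right panel BMP4 is the filled square above 0, and BMP3, ACVRL1, CHRDL1 and CRIM1 are the filled squares below 0.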

How the data were processed

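Polyadenylated RNA of single bovine oocytes was captured on beads, amplified and sequenced in 2 library replicates. The authors trimmed reads (Trim Galore 0.6.6 per the labels), aligned them with HISAT2 to ARS-UCD1.2 and deposited raw counts per gene from SeqMonk, with no normalization. How multi-mapping reads and strand were treated is not given in the sources used here. No deposited count column was left unused. Lines sharing a gene ID (3622 of 23161, 14.8% of counts) were summed; each member stands on 1 line.

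The oocytes listed by the study (97 and 68 in replicates 1 and 2) were grouped by labelled diameter, and counts were summed per size group and replicate (16 sums). Genes were kept by filterByExpr (minimum count 10, minimum total 15; 14087 genes) and tested with edgeR 4.0.16 (TMM, quasi-likelihood, replicate as a block, Benjamini-Hochberg, threshold 0.05) in R 4.3.3, with all 8 groups in 1 fit. The replicate number marks a library batch, and the deviations of same-numbered sums from their group means correlated at 0.398 to 0.694 over 28 pairs of groups, so it pairs the sums. With the replicate as a block, the p-values measure how far the size differences disagree between the 2 library batches. They do not isolate a spread between animals, which are not named. A standard error was the log2 difference divided by the square root of F. The fit was checked on simulated data. DESeq2 1.42.0 was an alternative.

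Levels per oocyte were CPM on TMM effective library sizes, and log2(CPM + 1) for correlations, with replicate means removed (scipy 1.17.1, pandas 2.3.3, numpy 2.4.6 and matplotlib 3.10.9 under Python 3.11.15). No transcript lengths were used, so levels of different genes are not directly comparable, and the ranks of BMP15 by mean CPM also carry transcript length. Symbols came from shortened copies of the gene lists of the study, which pair 3608 IDs; genes listed in the part not used were not analysed here. Named genes were the 8 members, the 15 pathway genes and the 5 symbols most like BMP15; the members, lists and rules were chosen with earlier results of these data known. Alternatives were no replicate block, RLE scaling, DESeq2, no filter, single oocytes, all 179 oocytes, only the groups compared, 250000 counts per oocyte, the line with the highest total, each sum left out, other scales for correlations and, chosen after seeing the data, the sums without 1 deep oocyte, each replicate alone with single oocytes and the interaction of size with replicate.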

Additional observations from a re-analysis of the deposited data

Results flagged for a closer look

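For BMP15 at ≥ 110 against 70–109 μm, the log2 difference in replicate 2 exceeded that in replicate 1 by 1.05 in a fit of single oocytes with an interaction term (adjusted p = 0.00893, edgeR). For BMPR2 at 80–99 against 70–79 μm the same kind of test gave 1.70 (adjusted p = 0.0355). Both were noticed because the test of the difference between replicates passed the threshold, and the replicates differ in library batch and read length, which cannot be told apart. This fit counts oocytes of an unknown number of animals as independent, so its p-values may be too small. Whether the replicates or size groups hold different animals is not known.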

How the results depend on the processing

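Without the replicate block, the fit that ignores the pairing of sums by library batch, BMP15 at > 120 over < 60 μm was 1.30 (adjusted p = 0.260), 0 members were called there or at ≥ 110 over 70–109 μm, BMPR2 turned to 0.034 at 70–109 over < 70 μm and 0.31 at > 120 over < 60 μm, and ACVR2A to -0.038 and 0.015 in the first 2 broad comparisons. Genes called then fell from 1338, 2080 and 2700 to 26, 21 and 81, and no pathway gene was called, with BMP4 at 2.84 and CHRDL1 at -1.78 for > 120 over < 60 μm.

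BMP15 at 70–109 over < 70 μm passed the threshold with DESeq2 (0.66), no filter (0.70), single oocytes (0.68), only the groups compared (0.67), 250000 counts per oocyte (0.78), without the deepest oocyte at 100–109 μm (0.76), and with single oocytes of replicate 1 (0.91) or 2 (0.55) alone; it stayed above it with RLE scaling, all 179 oocytes, the line with the highest total and no replicate block. The cause was not tested. Members called there then numbered 1, and 2 with single oocytes. BMP15 at ≥ 110 over 70–109 μm was -0.42 and 0.68 with single oocytes of replicate 1 or 2 alone. Members called at ≥ 110 over 70–109 μm were 2 with single oocytes and 0 with all 179 oocytes, and those at > 120 over < 60 μm were 4 with single oocytes and 1 with only the groups compared.

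With each sum left out in turn, BMP15 ranged from 0.56 to 0.82, from -0.15 to 0.52 and from 1.09 to 1.56 in the 3 broad comparisons in the order given, and members called from 0 to 1, 0 to 1 and 0 to 3. Genes called in these fits ranged from 504 to 1831, 981 to 2363 and 1093 to 2801. Where signs of uncalled members turned on leaving out a sum, their ranges were -0.006 to 0.48, then -0.078 to 0.90 for ACVR1 (first and last comparison), -0.13 to 0.29, -0.082 to 0.11 and -0.57 to 0.28 for ACVR2A, -0.33 to 0.14, -0.061 to 0.31 and -0.061 to 0.68 for ACVR2B, -0.29 to 0.12, -0.055 to 0.37 and -0.51 to 0.24 for BMPR2, -0.15 to 0.016 and -0.078 to 0.081 for BMPR1B (last 2) and -0.034 to 0.61 for BMP6 (first).

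Other turned signs, none of them called, were at 70–109 over < 70 μm with single oocytes (BMPR1B -0.056, ACVR2A -0.15, ACVR2B 0.00), 250000 counts (BMPR1B -0.031, ACVR2A -0.074), all 179 oocytes (ACVR2A -0.045) and without the deepest oocyte (BMPR2 0.00). At ≥ 110 over 70–109 μm they were ACVR2A at 0.020 with RLE, 0.019 with DESeq2, 0.031 with all 179 oocytes and 0.011 with the line with the highest total, and BMPR2 at -0.026 and ACVR2B at -0.31 with 250000 counts. At > 120 over < 60 μm they were BMPR1B at 0.001 with the line with the highest total and ACVR2B at -0.44 with 250000 counts.

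Genes called numbered 2064 with DESeq2 in the first comparison, 4291, 5105 and 4451 with single oocytes in the 3, and 1589 with only the groups compared in the last. The r with diameter of BMP15 lay between 0.186 and 0.306 over the other scales and sets, and those of BMPR1B, BMPR2, ACVR2A and ACVR2B turned positive with all 179 oocytes (0.085, 0.118, 0.036 and 0.071). Among the members depth limits BMP6 and ACVR2B most, and 14 oocytes > 120 μm, 4 of them in replicate 2, limit the last comparison.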
